A study of Aspergillus cristatus with 9 samples.

Results

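Ergosterol and its terpenoid backbone are described here in *A. cristatus* strain JLU, the golden flower fungus, grown with and without *Panax* roots. The gene set was taken from the annotation alone, as all genes that the deposited table assigns to the KEGG maps of steroid biosynthesis or terpenoid backbone biosynthesis, leaving out those also placed in the fatty acid degradation or N-glycan maps. This gave 108 of the 10227 genes in the table, 37 of them in the steroid map and 71 in the terpenoid backbone map, with 0 in both. RNA was sequenced from 9 libraries in 3 groups of 3. EcCK was the fungus without root contact, EcRS was collected from sterilised *P. ginseng* roots and EcSQ from sterilised *P. notoginseng* roots. All libraries carry the same strain, and the root groups were started from plate cultures grown for 10 days on potato dextrose agar and then kept for 1 week at 28 °C on the roots. The labels call the material of all groups mycelium with an age of 1 week, whereas the study's methods take the EcCK RNA from spores off plates, so that medium, stage and age cannot be told apart from root contact. The labels do not say whether the libraries of a group are separate cultures, and p-values measure the spread between these libraries only. Values of a group are given in the order of its replicates 1 to 3.

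Ergosterol is the main sterol of fungal membranes, where it takes the place that cholesterol has in animals. Either the sterol itself or an enzyme of its synthesis is the target of azole, allylamine and polyene antifungal drugs. Synthesis of ergosterol starts with the mevalonate pathway, which builds isopentenyl diphosphate from acetyl-CoA. Prenyl diphosphate synthases extend this unit into chains that feed dolichol, ubiquinone, protein prenylation and, through squalene and lanosterol, ergosterol itself. Enzymes are called here by their yeast (*Saccharomyces cerevisiae*) names where these exist, and by human names (EBP, DHCR7) where the assigned KEGG orthology (KO) group is named after the human enzyme.

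The label of the set did not hold for all of its genes. Of the 108 genes, 40 were assigned to the KO group of mevalonate kinase, and 2 of these 40 carried the matching GO term. Among the other 38, 36 carried the GO term of RNA-directed DNA polymerase activity, the reverse transcriptase of retroelements, and 2 carried neither term. These 38 genes are called the reverse transcriptase-like set and are counted apart from the remaining 70 pathway genes. In 46 of the pathway genes the GO terms also named the enzyme or a sterol, isoprenoid or prenylation function, 23 rested on the KO alone, and for 1 (SI65_00215) the GO terms were not used here. Both divisions were made after the values had been seen.

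Some pathway genes were also present as near-identical copies. On contig 1 of the assembly used in the table, 6 pairs shared description, coding length and KO, with the first copies between bases 4887727 and 5186944 and the second copies, on the opposite strand, between bases 5395683 and 5694889. Mevalonate kinase (SI65_01786 and SI65_02094), squalene synthase (SI65_01894 and SI65_01988), the farnesyltransferase alpha subunit (SI65_01821 and SI65_02059) and STE24 (SI65_01890 and SI65_01992) were among these. In the 5 pairs with a mean of at least 5 FPKM (fragments per kilobase of coding length, scaled to the mapped total of the library), the ratio of the copies stayed between 0.799 and 1.17 in every library. How reads were divided between copies is not given in the sources used here, so each pair is uncertain as 2 separate values and is read as 1 level. Counts of genes and summed levels below still include both copies, except where copies are said to be counted once.

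The estimated counts in listed genes summed to 45891944 to 61627866 per library, and 23.1 to 26.9% of the mapped total lay outside listed genes in EcRS against 12.1 to 14.9% in the other groups. EcSQ replicate 3 stood apart from its group, with a correlation of 0.78 and 0.85 to the other EcSQ libraries and of 0.91 to 0.93 to the EcRS libraries (Pearson, log2(FPKM + 1), over genes of at least 1 FPKM on average). In 48 of the 70 pathway genes it lay below both other EcSQ libraries and in 16 above both, and in 19 it was at least 5-fold below both. Over 9033 genes these shares were 72.2% below, 17.4% above and 28.6% at least 5-fold below. Of 162 genes annotated to asexual spores, 0 were at 0 FPKM in all libraries. Their summed level was 12728 to 21180 FPKM in EcCK, 23557 to 25925 in EcRS and 22700 to 37159 in EcSQ. In EcRS against EcCK, however, 19 of 155 tested rose and 50 fell (12.3% and 32.3%), with a median log2 fold change of -0.31. Over all genes 12.8% rose and 47.6% fell, with a median of -0.96. With libraries scaled by the trimmed mean of M-values (TMM), 56 spore genes rose and 29 fell (36.1% and 18.7%), with a median of 0.54. Over all genes 26.4% rose and 31.4% fell with TMM, with a median of -0.11. The part of the spore genes in the results below was not tested. In such bulk RNA, fewer cells of a type and less RNA per cell cannot be told apart.

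To find which steps of the route changed on *P. ginseng* roots, EcRS was compared with EcCK. Of the 66 pathway genes tested, 12 were up-regulated and 23 were down-regulated, and 31 did not pass. A gene each of ERG6 (SI65_04720), ERG2 (SI65_01557), ERG5 (SI65_01506) and ERG4 (SI65_01246) rose by 2.90 to 4.99-fold. However, SI65_07443 of the ERG6 KO and SI65_01245 of the ERG4 KO, on average more abundant in EcCK than these ERG6 and ERG4 genes, fell. HMG-CoA synthase and diphosphomevalonate decarboxylase at the start of the route rose as well. Among the genes that fell were the sterol O-acyltransferase, a TGL4-type lipase and ERG27, and the deepest falls were in a DHCR7-type gene and a geranylgeranyl diphosphate synthase. A gene was called with edgeR (quasi-likelihood test on estimated counts) at a Benjamini-Hochberg adjusted p of at most 0.05 over all genes tested and at least a 2-fold change, among genes that averaged 1 FPKM or more in the 6 libraries. Over all 8925 genes tested, 12.8% were called up and 47.6% down, and the shares in the pathway genes were 18.2% and 34.8%. The median log2 fold change was -0.20 over the pathway genes and -0.96 over all genes. With copies counted once, 12 rose and 21 fell. Some genes called down, namely SI65_07629, SI65_09732 and the pair SI65_01897 and SI65_01985, were low and passed the filter through EcCK, which favours a fall.

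The scaling of the libraries bore on these counts. The scaling of the deposited FPKM puts the median of all genes at -0.96, and TMM scaling moves it up by 0.85. With TMM 27 pathway genes were called up and 14 down, beside 26.4% up and 31.4% down over all genes, and their median was 0.65 beside -0.11 over all genes. All 12 genes called up and 14 of the 23 called down were called in the same direction under both, 15 were called up with TMM only, and 0 changed direction. The genes whose fall was not called with TMM are given as such below.

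**Figure D1:**
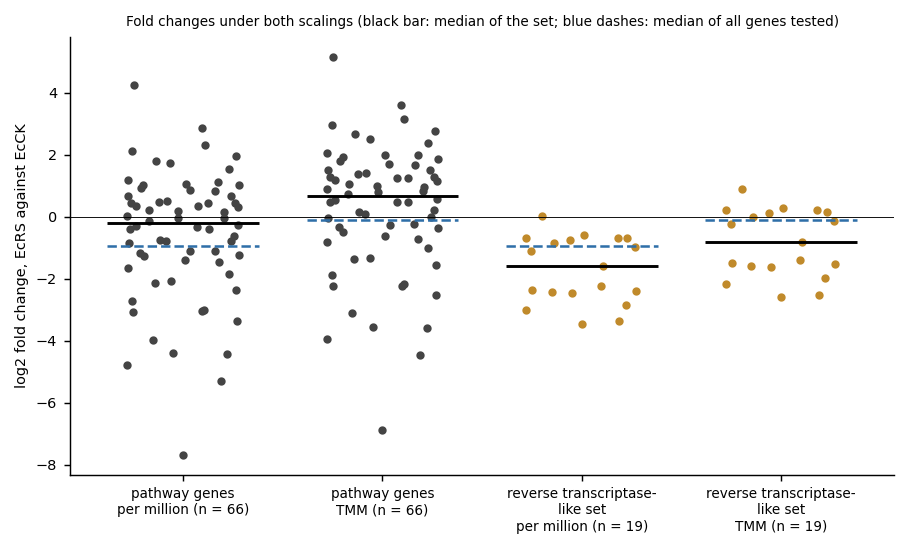
log2 fold change in EcRS against EcCK (vertical axis) of the 66 tested pathway genes and the 19 tested genes of the reverse transcriptase-like set, each under the scaling of the deposited FPKM and under TMM. Each point is a gene, black bars are the medians of the set and blue dashes the medians of all 8925 genes tested. The pathway median lies above the all-gene median under both scalings (-0.20 against -0.96, and 0.65 against -0.11), and that of the reverse transcriptase-like set lies below it. Genes of the latter set mostly passed the filter through their EcCK level, which favours a low median, so its position is a description only.

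In the mevalonate pathway 3 of 8 genes rose and 0 fell (5 and 0 with TMM, where the 5 include both copies of mevalonate kinase). HMG-CoA synthase (SI65_05826), which condenses acetyl-CoA and acetoacetyl-CoA, had 288, 466 and 396 FPKM in EcCK, 594, 881 and 845 FPKM in EcRS and 1118, 2323 and 2468 FPKM in EcSQ. EcRS lay above EcCK in all libraries, with log2 fold change 1.01 ± 0.31 (SE), adjusted p = 0.0179. This call sat at the fold threshold and was lost without EcCK replicate 1 (0.84), EcRS replicate 2 (0.91) or EcRS replicate 3 (0.94). Diphosphomevalonate decarboxylase (SI65_03241), which yields isopentenyl diphosphate, had 64.8, 96.4 and 117 FPKM in EcCK, 363, 411 and 423 FPKM in EcRS and 479, 819.6 and 349 FPKM in EcSQ. Its rise was the larger, 4.31-fold, with log2 fold change 2.11 ± 0.30 (SE), adjusted p = 0.000282, and the groups did not overlap.

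HMG-CoA reductase, the step that makes mevalonate and is known as the main point of control in yeast and animals, is represented by 2 genes. The longer one (SI65_05438), on contig 5 from base 702595 to 706216 with 4 exons, had 37.8, 44.9 and 61.0 FPKM in EcCK, 39.9, 36.0 and 55.8 FPKM in EcRS and 111, 208 and 167 FPKM in EcSQ. Its EcRS and EcCK values overlapped and the difference was not called. The second (SI65_01036) carried the GO term of a steroid dehydrogenase in place of the reductase term. It rose from 3.34, 2.77 and 1.54 FPKM in EcCK to 7.07, 8.71 and 9.90 FPKM in EcRS, with log2 fold change 1.75 ± 0.37 (SE), adjusted p = 0.00291.

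Mevalonate kinase (SI65_01786 and its copy SI65_02094) had 30.1, 39.2 and 35.3 FPKM in EcCK, 58.0, 64.8 and 63.2 FPKM in EcRS and 72.6, 120.0 and 42.1 FPKM in EcSQ in the first copy. The EcRS libraries were above all EcCK libraries, but the change of 1 copy stayed at 0.83 (adjusted p = 0.0102) and that of the other at 0.86 (adjusted p = 0.00861), under the 2-fold limit. With TMM both copies were called up. Phosphomevalonate kinase (SI65_06619) had 145, 196 and 166 FPKM in EcCK, 134, 119.9 and 146 FPKM in EcRS and 259, 235 and 20.6 FPKM in EcSQ, and its change was not called. Isopentenyl diphosphate isomerase (SI65_05138), which makes dimethylallyl diphosphate, the starter of all chains, had 215, 418 and 1025 FPKM in EcCK, 326.8, 289.9 and 369 FPKM in EcRS and 2401, 1880.1 and 75.1 FPKM in EcSQ. In EcCK it spread over the widest range of the mevalonate genes, and EcRS lay inside that range. It was called down only without EcCK replicate 1 (-1.13, adjusted p = 0.0194).

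Among the prenyl chain genes 0 of 11 tested rose and 7 fell (2 and 4 with TMM). The main farnesyl diphosphate synthase (SI65_04275), whose product is the branch point to sterols, had 27.5, 31.6 and 67.2 FPKM in EcCK, 56.4, 51.6 and 68.6 FPKM in EcRS and 81.2, 64.6 and 59.9 FPKM in EcSQ, and its change was called up with TMM (1.38, adjusted p = 0.00185) and not in the test above. The other 3 genes of this KO were low and fell. SI65_08119 had 6.25, 5.83 and 7.34 FPKM in EcCK, 2.09, 1.52 and 1.77 FPKM in EcRS and 3.96, 2.69 and 1.24 FPKM in EcSQ, a fall of 3.60-fold (log2 fold change -1.85 ± 0.33 (SE), adjusted p = 0.00106). SI65_09732 had 1.99 to 2.32 FPKM in EcCK and 0.147 to 0.407 FPKM in EcRS, and SI65_07629 had 1.55 to 2.50 FPKM and 0.354 to 1.08 FPKM. The last of these falls, -1.40, was not called with TMM and was lost without EcCK replicate 1 (-1.31), EcCK replicate 2 (-1.28), EcRS replicate 2 (-1.06) or EcRS replicate 3 (-1.57). The fall of SI65_09732 was -3.03 (adjusted p = 0.000571). Both SI65_09732 and SI65_07629 averaged under 1 FPKM in EcRS and passed the filter through their EcCK level. That favours a fall, so their falls are a description only.

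Geranylgeranyl diphosphate synthases, which supply carotenoids, diterpenes and geranylgeranylated proteins, moved unequally. SI65_05625, on contig 5 from base 1232493 to 1235061 with 10 exons, had 70.9, 97.2 and 103 FPKM in EcCK, 2.35, 2.27 and 2.25 FPKM in EcRS and 35.3, 5.68 and 4.75 FPKM in EcSQ. The groups did not overlap, a 39.4-fold fall (log2 fold change -5.30 ± 0.29 (SE), adjusted p = 1.04e-05). SI65_07677 fell from 10.6, 12.1 and 16.3 FPKM in EcCK to 5.78, 6.09 and 6.33 FPKM in EcRS, with a change of -1.10 that was not called with TMM and was -0.90 without EcCK replicate 3. SI65_09721 had 36.8, 87.1 and 308 FPKM in EcCK, 273, 223.01 and 374 FPKM in EcRS and 631, 258 and 154 FPKM in EcSQ. EcCK replicate 3 lay within the EcRS values and the other EcCK libraries below them. Its difference was not called in the test above, was called up with the libraries paired by number (1.50) and with TMM, and came to 2.23 without EcCK replicate 3. The long chain synthase for the ubiquinone tail (SI65_06273) had 16.7, 18.2 and 23.5 FPKM in EcCK, 15.7, 14.4 and 17.6 FPKM in EcRS and 28.8, 24.5 and 15.8 FPKM in EcSQ and did not pass.

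Dehydrodolichyl diphosphate synthase makes the chain of dolichol, the lipid that carries glycans for N-glycosylation. SI65_00558 had 212, 201 and 103 FPKM in EcCK, 74.6, 94.1 and 72.4 FPKM in EcRS and 38.3, 28.9 and 6.85 FPKM in EcSQ. Its EcRS values were all below those of EcCK (log2 fold change -1.10 ± 0.32 (SE), adjusted p = 0.0136), with a call that was lost with TMM and without EcCK replicate 1 (-0.92), EcCK replicate 2 (-0.97), EcRS replicate 1 (-1.05) or EcRS replicate 3 (-1.03). The second subunit of the enzyme, known as NUS1 in yeast (SI65_08785), had 263, 258 and 116 FPKM in EcCK, 149, 151 and 117 FPKM in EcRS and 86.7, 66.8 and 21.3 FPKM in EcSQ, with EcRS inside the EcCK range. A further gene of the KO (SI65_00215) fell from 32.3, 32.6 and 36.6 FPKM in EcCK to 4.50, 4.39 and 3.24 FPKM in EcRS, with log2 fold change -3.06 ± 0.26 (SE), adjusted p = 2.33e-05. The remaining gene, SI65_08464, had at most 0.385 FPKM in any library and was not tested.

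Genes of protein prenylation attach a farnesyl or geranylgeranyl chain to proteins such as Ras and then trim and methylate the end. In this group 1 of 13 rose and 4 fell, whereas with TMM 7 rose and 3 fell, and the median was 0.34 and 1.15, respectively. Both copies of a STE24 pair are among the falls under either scaling, and both copies of another among the rises with TMM. The beta subunit of farnesyltransferase (SI65_00770) fell from 19.1, 27.9 and 51.4 FPKM in EcCK to 12.9, 13.3 and 17.4 FPKM in EcRS. This fall of -1.17 was not called with TMM (-0.27) and was lost without EcCK replicate 3 (-0.69), EcRS replicate 1 (-1.09) or EcRS replicate 2 (-1.12). The alpha subunit, in its first copy SI65_01821, ranged from 9.40 to 23.8 FPKM in EcCK and from 8.92 to 14.4 FPKM in EcRS and was not called.

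The genes of the CAAX proteases and of the methyltransferase moved in both directions. STE24 with the GO term (SI65_01890 and its copy) had 40.8, 39.5 and 45.5 FPKM in EcCK, 57.6, 54.2 and 58.2 FPKM in EcRS and 81.1, 82.3 and 53.6 FPKM in EcSQ in the first copy and was called up with TMM (1.26) and not in the test above. The copies SI65_01811 and SI65_02068, assigned to the same KO without the GO term, fell 21.7-fold and 21.2-fold, the first from 18.5, 20.7 and 30.5 FPKM in EcCK to 1.10, 0.885 and 1.20 FPKM in EcRS (log2 fold change -4.44 ± 0.34 (SE), adjusted p = 1.92e-05). Another KO-only gene, SI65_01817, had 23.3 to 56.7 FPKM in EcCK and 63.2 to 88.6 FPKM in EcRS and missed the fold limit at 0.92 (adjusted p = 0.0489), with a call without EcCK replicate 3 (1.28) and with TMM (1.79). Both RCE1-type genes rest on the KO alone. SI65_03486 had 26.5, 29.0 and 26.2 FPKM in EcCK, 28.9, 36.6 and 38.3 FPKM in EcRS and 27.3, 43.0 and 57.3 FPKM in EcSQ and was called up with TMM (1.15) and not in the test above, and its near neighbour SI65_03489 fell from 16.3, 17.3 and 30.0 FPKM in EcCK to 1.55, 0.776 and 1.68 FPKM in EcRS (log2 fold change -3.98 ± 0.44 (SE), adjusted p = 8.32e-05).

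STE14, the carboxyl methyltransferase, had 15.8 to 23.2 FPKM in EcCK and 24.1 to 31.3 FPKM in EcRS in the gene with the GO term (SI65_03634), which was called up with TMM (1.28) and not in the test above. The riser of the group was the other gene of this KO, SI65_08677, whose one informative GO term is nucleic acid binding. It had 4.65, 4.47 and 2.58 FPKM in EcCK, 23.3, 27.6 and 33.5 FPKM in EcRS and 27.5, 27.3 and 46.1 FPKM in EcSQ. Its rise of 7.21-fold (log2 fold change 2.85 ± 0.32 (SE), adjusted p = 8.01e-05) was therefore in a gene whose GO terms do not name the enzyme. Prenylcysteine oxidase (SI65_05656), which breaks down prenylated cysteine, had 27.4, 37.4 and 78.8 FPKM in EcCK, 48.9, 60.4 and 72.1 FPKM in EcRS and 79.7, 75.3 and 33.5 FPKM in EcSQ and was called up with TMM (1.25) and not in the test above.

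From squalene to lanosterol 1 of 7 genes rose and 4 fell (1 and 2 with TMM). The 7 genes include both copies of 2 squalene synthase pairs, and 2 of the 4 falls are the copies SI65_01897 and SI65_01985. Squalene synthase, the first step given over to sterols (SI65_01894, copy SI65_01988), had 118, 147 and 117 FPKM in EcCK, 117, 151 and 158 FPKM in EcRS and 69.2, 111 and 154 FPKM in EcSQ in the first copy, and the groups overlapped. Squalene epoxidase (SI65_09076), the target of allylamine antifungals, had 23.0, 19.4 and 23.3 FPKM in EcCK, 45.8, 46.5 and 55.6 FPKM in EcRS and 52.8, 58.0 and 79.4 FPKM in EcSQ. EcRS lay above EcCK in all libraries, a rise of 2.25-fold (log2 fold change 1.17 ± 0.23 (SE), adjusted p = 0.00185). A short gene pair of the squalene synthase KO, SI65_01897 and SI65_01985 with 549 coding bases, had at most 3.18 FPKM in any library and fell by 2.38 and 2.71 on the log2 scale. The fall of SI65_01897 was not called with TMM and that of its copy was. This pair was low and passed the filter through its EcCK level, which favours a fall, so these falls are a description only.

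Lanosterol synthase closes squalene epoxide into the first sterol. Its KO was given to 2 neighbouring genes on contig 4, with 411 bases between them, and neither carried the GO term. SI65_04914, from base 1490122 to 1492506, had 7.11, 10.5 and 17.3 FPKM in EcCK, 3.69, 5.28 and 5.56 FPKM in EcRS and 26.2, 19.5 and 1.43 FPKM in EcSQ. Its EcRS values were all below EcCK (log2 fold change -1.26 ± 0.37 (SE), adjusted p = 0.0144), though the change was -0.37 and not called with TMM, -0.86 without EcCK replicate 3 and -1.10 without EcRS replicate 1, with the call lost in both. SI65_04915, from base 1492918 to 1494360, was the more abundant in EcCK, at 69.2, 95.3 and 90.4 FPKM in EcCK. It fell 27.3-fold to 2.47, 2.58 and 4.27 FPKM in EcRS (log2 fold change -4.77 ± 0.34 (SE), adjusted p = 1.62e-05).

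Between lanosterol and ergosterol 7 of 23 tested genes rose and 5 fell, whereas with TMM 12 rose and 3 fell, and the median was 0.22 and 1.06, respectively. ERG11, the demethylase that azole drugs inhibit (SI65_07535), had 66.6, 79.5 and 86.3 FPKM in EcCK, 112, 129 and 128 FPKM in EcRS and 88.8, 127 and 294 FPKM in EcSQ. EcRS exceeded EcCK in all libraries by 0.67 on the log2 scale (adjusted p = 0.03), which is under the 2-fold limit and was called up with TMM. ERG24, a sterol reductase (SI65_00945), had 24.6, 29.7 and 43.0 FPKM in EcCK, 58.5, 69.9 and 74.5 FPKM in EcRS and 85.9, 113 and 134 FPKM in EcSQ. It rose 2.09-fold (log2 fold change 1.06 ± 0.28 (SE), adjusted p = 0.00829), a call that was lost without EcCK replicate 1 (0.90) or EcRS replicate 3 (0.99).

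The complex that removes the methyl groups at the first ring consists of ERG25, ERG26 and ERG27. ERG25 (SI65_02524) was the highest of the 26 genes of the section in every EcCK library, with 283, 332 and 265 FPKM in EcCK, 151, 163 and 179 FPKM in EcRS and 286, 197 and 227.1 FPKM in EcSQ. EcRS was below EcCK in all libraries, but the difference of -0.84 (adjusted p = 0.0119) stayed within 2-fold. ERG26 (SI65_02206) had 59.8, 66.3 and 90.6 FPKM in EcCK, 23.6, 21.4 and 23.3 FPKM in EcRS and 89.2, 61.6 and 3.33 FPKM in EcSQ and fell 3.17-fold (log2 fold change -1.67 ± 0.25 (SE), adjusted p = 0.000438), a fall of 0.81 on the log2 scale with TMM, where it was not called. The second ERG26 gene, SI65_01308, had 12.7 to 14.8 FPKM in EcCK and 12.1 to 15.5 FPKM in EcRS. ERG27 (SI65_00575), the keto reductase of the complex, had 16.3, 23.6 and 27.1 FPKM in EcCK, 1.83, 2.46 and 4.003 FPKM in EcRS and 27.1, 17.0 and 0.724 FPKM in EcSQ. The highest EcRS library was below the lowest of EcCK, an 8.07-fold fall (log2 fold change -3.01 ± 0.39 (SE), adjusted p = 0.000172) that was also called with TMM.

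ERG6, the sterol methyltransferase that gives ergosterol the side chain that cholesterol lacks, had genes that moved in both directions. SI65_04720 had 57.7, 57.8 and 65.2 FPKM in EcCK, 199, 212.9 and 290.2 FPKM in EcRS and 98.9, 203 and 312 FPKM in EcSQ, a 3.89-fold rise (log2 fold change 1.96 ± 0.26 (SE), adjusted p = 0.000189) with no overlap between EcRS and EcCK. A KO-only gene of the same group, SI65_07443, whose GO terms name a methyltransferase without the sterol, had 126, 129 and 62.3 FPKM in EcCK, 34.9, 60.9 and 37.8 FPKM in EcRS and 16.9, 14.3 and 26.4 FPKM in EcSQ. It fell (log2 fold change -1.25 ± 0.36 (SE), adjusted p = 0.0125), with no call with TMM and none without EcRS replicate 1 (-1.10) or EcRS replicate 3 (-1.14). The third, SI65_09218, was not called.

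The sterol isomerase step has 2 kinds of enzyme in this set. ERG2, the fungal isomerase (SI65_01557), had 47.5, 46.7 and 65.2 FPKM in EcCK, 146, 167 and 149 FPKM in EcRS and 151, 162 and 192 FPKM in EcSQ and rose 2.90-fold (log2 fold change 1.53 ± 0.25 (SE), adjusted p = 0.000588). The KO of EBP, which does this step in mammals, was given to 3 genes. SI65_10136, on the small contig 26 from base 7348 to 8210 and with the GO term of the isomerase, had 0.994, 2.27 and 4.24 FPKM in EcCK, 50.7, 38.5 and 52.6 FPKM in EcRS and 23.3, 29.0 and 62.3 FPKM in EcSQ. It was the largest riser among the pathway genes, 18.8-fold (log2 fold change 4.23 ± 0.52 (SE), adjusted p = 0.000142). SI65_09595, KO only, had 1.31 to 3.74 FPKM in EcCK and 4.87 to 5.64 FPKM in EcRS, and its call at 1.13 (adjusted p = 0.0374) was lost when any library but EcCK replicate 3 was left out (0.84 to 1.17). SI65_08380 had 8.45 to 12.6 FPKM in EcCK and 8.06 to 8.84 FPKM in EcRS and was not called.

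The desaturases and the final reductase lead to ergosterol itself. ERG3 (SI65_03516), the first of the desaturases, had 72.4, 72.8 and 103 FPKM in EcCK, 70.7, 75.9 and 93.1 FPKM in EcRS and 87.8, 95.8 and 299 FPKM in EcSQ, with the EcRS libraries among those of EcCK. ERG5 (SI65_01506), the side chain desaturase, had 32.7, 37.2 and 60.6 FPKM in EcCK, 125, 152 and 180.2 FPKM in EcRS and 78.2, 151 and 449.6 FPKM in EcSQ. It rose 3.51-fold (log2 fold change 1.81 ± 0.31 (SE), adjusted p = 0.000858), and the lowest EcRS library was above the highest of EcCK. ERG4 (SI65_01246), the reductase of the last step, had 14.0, 16.1 and 16.6 FPKM in EcCK, 63.7, 68.9 and 100.5 FPKM in EcRS and 56.1, 104 and 70.2 FPKM in EcSQ and rose 4.99-fold (log2 fold change 2.32 ± 0.27 (SE), adjusted p = 0.000106).

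The ERG4 gene has a neighbour of the same KO on either side on contig 1, on the same strand. ERG4 itself runs from base 3388046 to 3389994. SI65_01245, from base 3385198 to 3387436, ends 609 bases before it and carries zinc ion binding in its GO terms in place of the reductase. It had 93.5, 67.9 and 55.0 FPKM in EcCK, 15.2, 18.5 and 17.1 FPKM in EcRS and 39.6, 41.6 and 6.73 FPKM in EcSQ and fell 4.26-fold (log2 fold change -2.09 ± 0.28 (SE), adjusted p = 0.000198). SI65_01247 begins 493 bases after ERG4, had 10.7, 15.2 and 26.3 FPKM in EcCK, 28.7, 19.0 and 26.9 FPKM in EcRS and 79.6, 37.9 and 3.14 FPKM in EcSQ and was called up with TMM (1.41) and not in the test above. The gene in the middle thus rose, with the GO term of the enzyme, beside a falling KO-only neighbour.

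The deepest fall of the set was in a gene of the DHCR7 KO (SI65_04700), an enzyme known from the last step of cholesterol synthesis in human. The gene had no informative GO term. It had 47.8, 34.7 and 38.4 FPKM in EcCK, 0.208, 0.198 and 0.148 FPKM in EcRS and 39.6, 7.87 and 0.501 FPKM in EcSQ. The EcRS values rest on estimated counts of 10 to 15 per library, and the fall came to 205-fold (log2 fold change -7.68 ± 0.36 (SE), adjusted p = 8.14e-06). The EcSQ libraries were spread between these groups. EcSQ replicate 1 lay within the EcCK values, replicate 2 below them, and replicate 3 was the closest to EcRS.

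The remaining genes of this section did not pass in the test above or were not tested. The second ERG25 gene (SI65_07290) had 3.50 to 5.18 FPKM in EcCK and 2.89 to 7.0 FPKM in EcRS. The other ERG3 genes had 5.17 to 6.82 FPKM in EcCK and 8.25 to 10.1 FPKM in EcRS (SI65_00030, with the GO term) and 13.8 to 30.2 FPKM and 24.5 to 28.7 FPKM (SI65_03026, KO only). With TMM these genes were called up, by 1.06, 1.50 and 1.19 on the log2 scale. A second gene of the ERG11 KO (SI65_06315) had 7.0 to 29.4 FPKM in EcCK and 12.4 to 19.9 FPKM in EcRS and was not called under either scaling. SI65_00097, SI65_09939 and SI65_00388, of the ERG11, ERG4 and DHCR7 KOs, were under the minimum for testing, with at most 1.61 FPKM in any library of EcCK or EcRS.

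Sterol esters are the storage form of sterols in lipid droplets. All 4 genes of this role had lower means in EcRS than in EcCK, and 3 were called down (2 with TMM). Over all genes 47.6% were called down, and 31.4% with TMM. The sterol O-acyltransferase (SI65_00999), which forms the esters and carries the GO term of the ergosterol enzyme, had 113, 166 and 55.3 FPKM in EcCK, 19.6, 30.0 and 26.8 FPKM in EcRS and 14.3, 23.5 and 39.0 FPKM in EcSQ. It fell 4.38-fold (log2 fold change -2.13 ± 0.40 (SE), adjusted p = 0.0015). The sterol esterase (SI65_03840), which releases the sterol again, had 72.6, 49.9 and 33.2 FPKM in EcCK, 15.7, 22.4 and 17.8 FPKM in EcRS and 18.4, 26.3 and 26.1 FPKM in EcSQ and fell 2.78-fold (log2 fold change -1.48 ± 0.33 (SE), adjusted p = 0.00349), a fall of 0.73 on the log2 scale with TMM, where it was not called. A lipase of the TGL4 type (SI65_00888), known in yeast to act on triglycerides and sterol esters, had 62.7, 70.4 and 77.4 FPKM in EcCK, 6.89, 5.33 and 8.16 FPKM in EcRS and 22.4, 31.7 and 6.38 FPKM in EcSQ. It fell 10.3-fold (log2 fold change -3.37 ± 0.27 (SE), adjusted p = 2.19e-05) and was called with TMM as well. The second TGL4-type gene (SI65_01616) had 132, 153 and 99.2 FPKM in EcCK, 68.0, 88.8 and 63.6 FPKM in EcRS and 45.0, 32.2 and 10.4 FPKM in EcSQ, with a difference of -0.80 (adjusted p = 0.0274).

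**Figure D2:**
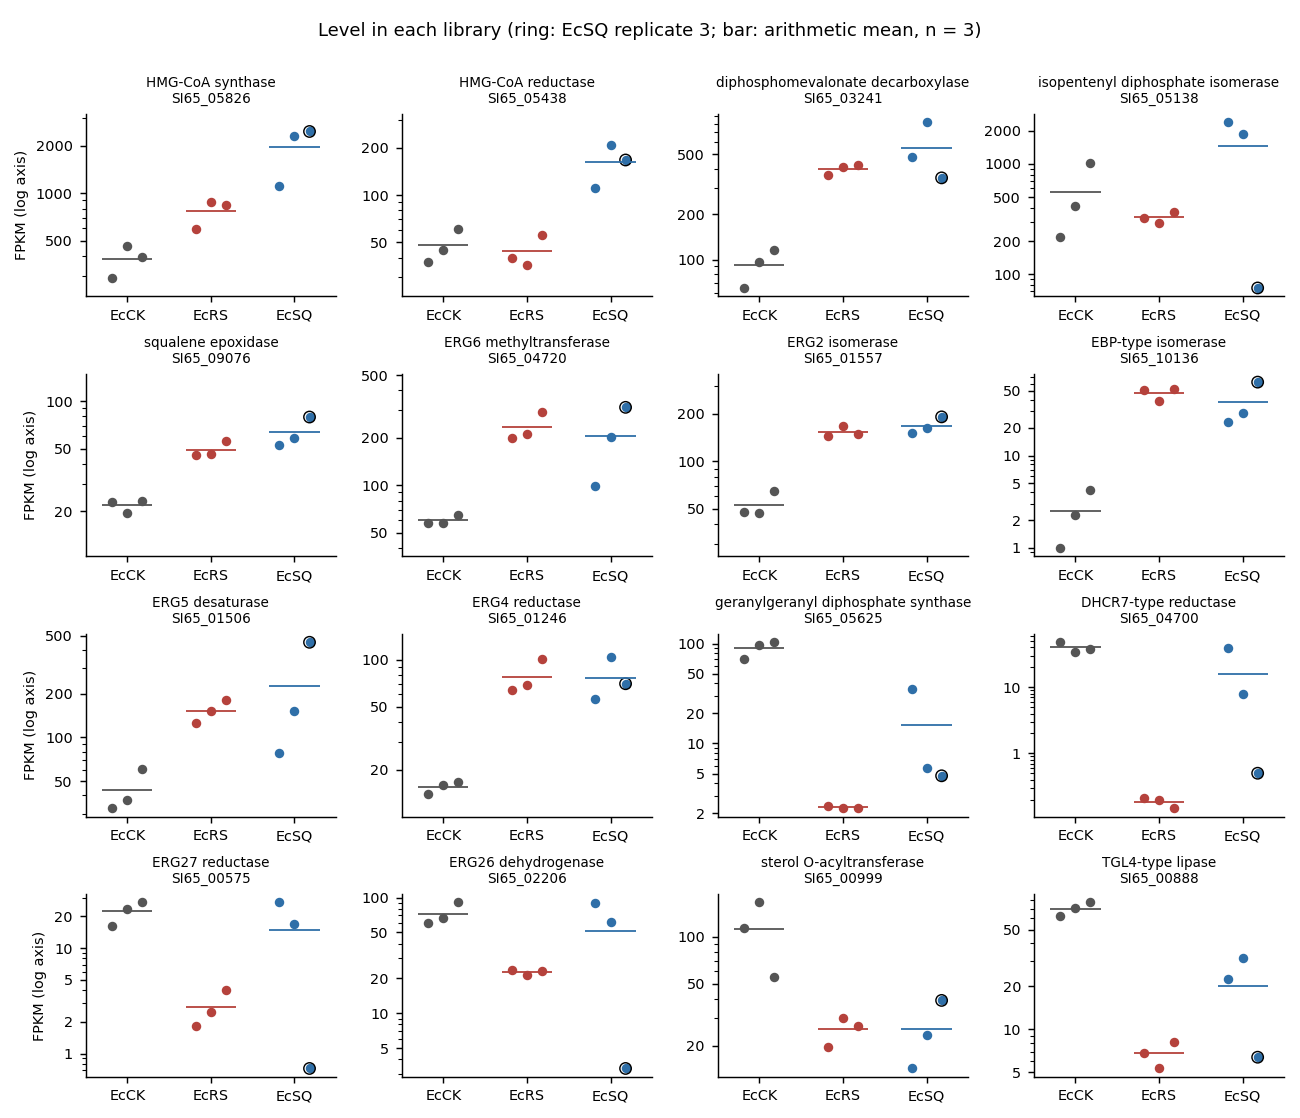
FPKM of 16 pathway genes in each library (vertical axis, log scale). Points are libraries, bars are arithmetic means of 3, and the ring marks EcSQ replicate 3. ERG4, ERG2, ERG6 and the EBP-type gene SI65_10136 lie higher in both root groups than in EcCK in all libraries, whereas for ERG26, ERG27 and the DHCR7-type gene EcSQ replicate 3 lies far below the other EcSQ libraries.

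In 45 tested pathway genes the GO terms also named the enzyme or a sterol, isoprenoid or prenylation function. Of these, 10 rose and 12 fell, with a median log2 fold change of 0.02. With TMM 20 rose and 6 fell, with a median of 0.82. The 10 include SI65_01036, whose GO term is not that of its assigned enzyme. Of 20 tested genes with the KO only, 2 rose and 10 fell, with a median of -1.02, and with TMM 7 rose and 7 fell, with a median of -0.19. The share of falls in the latter, 50%, lay near the 47.6% of all genes. The difference between the divisions was not tested, because they were drawn after the values were seen.

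The reverse transcriptase-like set was low throughout. The group mean of its 38 genes ranged from 0.0487 to 6.005 FPKM in EcCK, from 0.0157 to 4.98 FPKM in EcRS and from 0.0289 to 9.14 FPKM in EcSQ. Their summed level was 65.5 to 104 FPKM in EcCK, 28.5 to 31.7 FPKM in EcRS and 91.9 and 104 FPKM in the higher EcSQ libraries, with 29.0 FPKM in EcSQ replicate 3. In 26 of the 38 genes all EcRS libraries lay below all EcCK libraries, as they did in 52.0% of all listed genes. Of the 19 genes that passed the filter, 0 rose and 11 fell in the edgeR test (14 had an unadjusted p under 0.05, and DESeq2 called 0 up and 9 down, beside 27.2% up and 31.5% down over all genes, and TMM 0 and 9). A gene of this set that passed the filter mostly did so through its EcCK level, so that these counts are a description only. The falls called ranged from -3.47 (SI65_04168) to -1.11 (SI65_10340), and the highest gene in EcCK, SI65_02317, went from 3.78, 5.35 and 8.88 FPKM in EcCK to 0.760, 1.21 and 1.46 FPKM in EcRS. Leaving out 1 library gave 8 to 10 falls when it was an EcCK library and 16 or 17 when it was an EcRS library. The filter was applied anew to the libraries kept, so the genes tested changed as well. Without an EcRS library, genes could enter through their EcCK level, such as SI65_00669 (mean 1.75 FPKM in EcCK and 0.103 FPKM in EcRS). These counts therefore do not show how stable the falls are. The other 71 genes of the table with the same GO term and outside the set gave 1 rise and 25 falls among 45 tested, with a median of -1.14 (2 and 9 with TMM, median -0.25). These shares were 2.22% and 55.6%, beside 12.8% and 47.6% over all genes, and with TMM 4.44% and 20%, beside 26.4% and 31.4%.

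Over both divisions, 12 of 85 tested genes of the set rose and 34 fell, which is 14.1% and 40% beside 12.8% and 47.6% over all genes. The median was -0.69. With TMM 27 rose and 23 fell, and the median was 0.20.

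**Figure D3:**
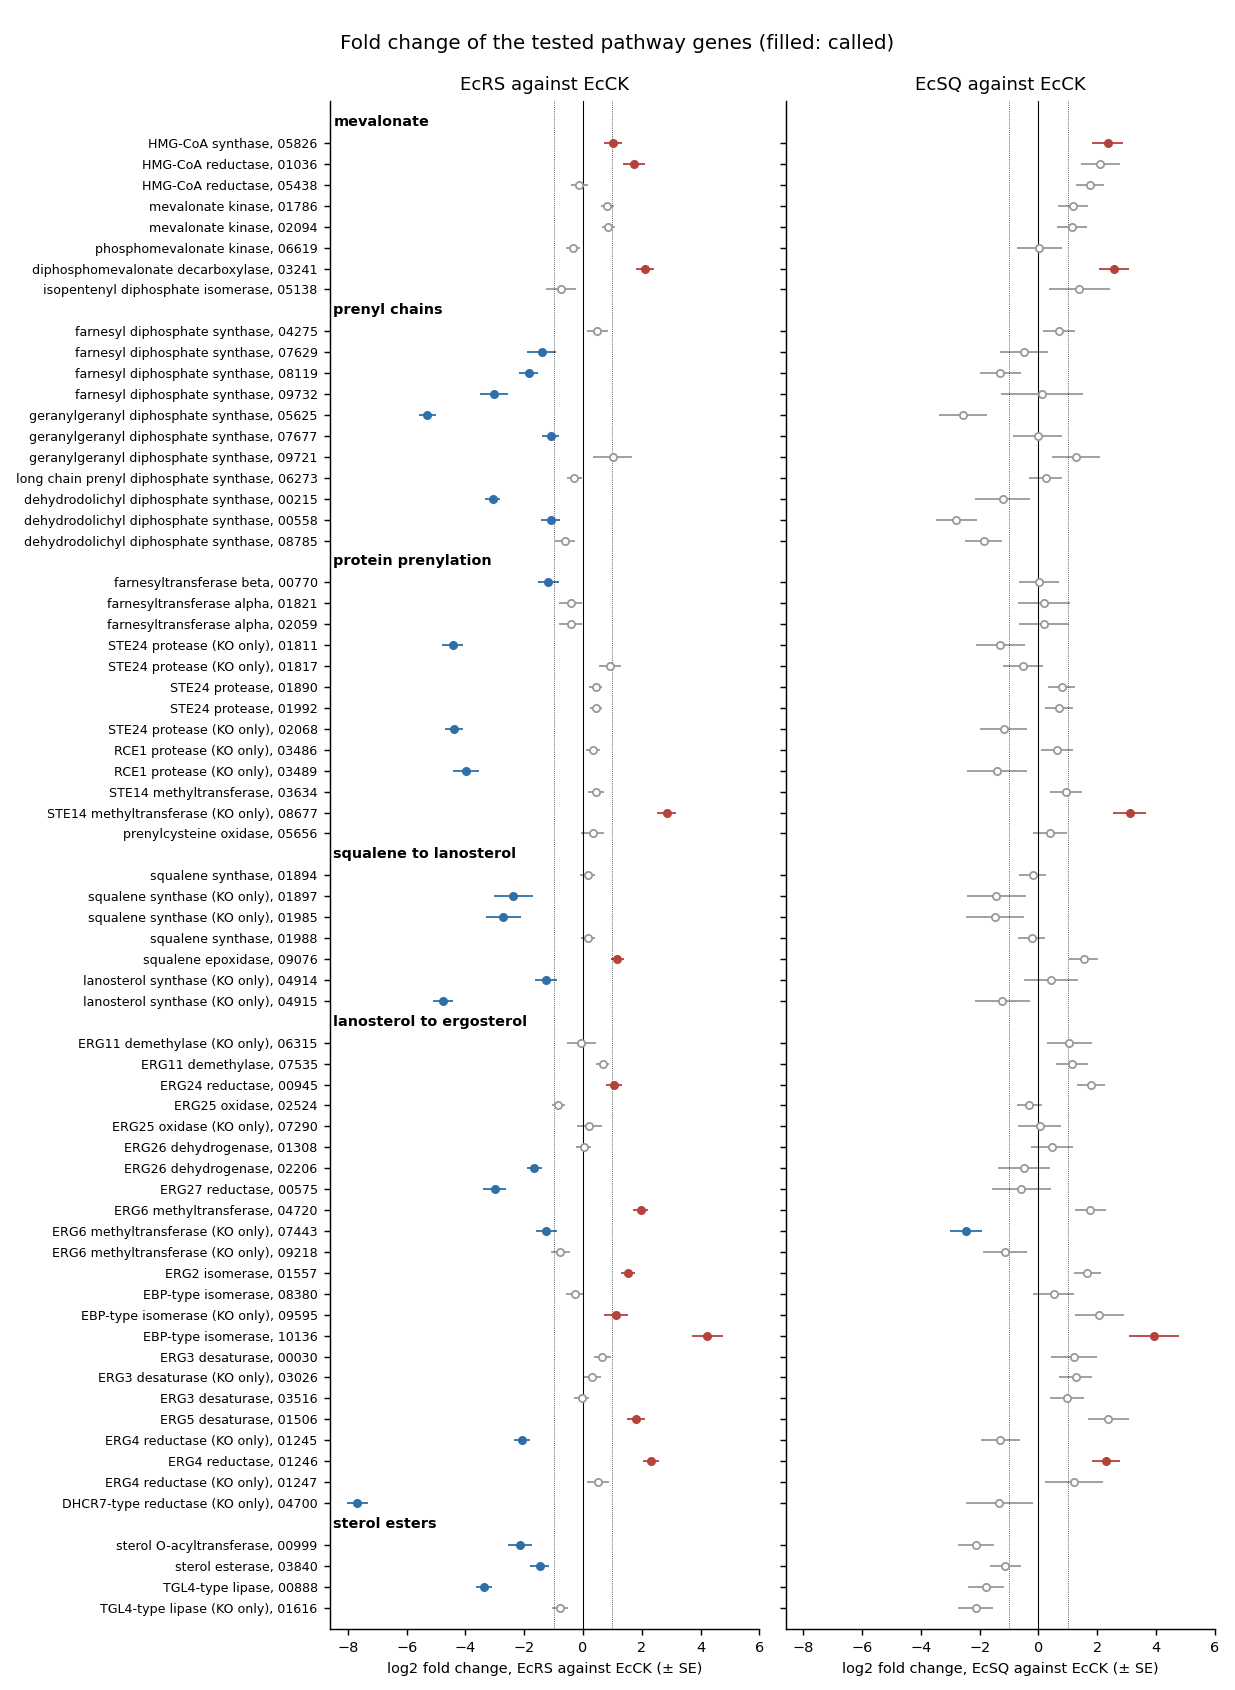
log2 fold change ± SE (horizontal axis) of the tested pathway genes by role, in EcRS against EcCK (left) and EcSQ against EcCK (right). Labels give the enzyme and the number of the gene, filled red points are genes called up, filled blue points genes called down and open points genes not called, and dotted lines mark the 2-fold limits. On the left 12 genes are filled red and 23 blue, and on the right 5 and 1, with wider error bars.

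Genes of sterol metabolism outside the set were taken from a list of GO terms and KOs. The list held 20 genes, of which 15 were tested in EcRS against EcCK. Among these, 4 rose and 3 fell (26.7% and 20%), beside 12.8% and 47.6% over all genes. With TMM 9 rose and 1 fell (60% and 6.67%), beside 26.4% and 31.4%. Cytochrome b5 (SI65_09547), which passes electrons to sterol desaturases, had 330.1, 440.4 and 498 FPKM in EcCK, 1661, 1297 and 1215 FPKM in EcRS and 1221, 1545 and 4035 FPKM in EcSQ. Its rise of 3.29-fold (log2 fold change 1.72 ± 0.28 (SE), adjusted p = 0.00071) kept the groups apart. A bridging protein of the endoplasmic reticulum membrane annotated to ergosterol synthesis (SI65_08576) had 14.5, 17.8 and 24.1 FPKM in EcCK, 96.1, 61.2 and 76.8 FPKM in EcRS and 78.6, 71.6 and 36.6 FPKM in EcSQ and rose (log2 fold change 2.05 ± 0.31 (SE), adjusted p = 0.000419). A heme-binding activator annotated to the regulation of ergosterol synthesis (SI65_05811) rose with a change of 1.03, which was lost without EcCK replicate 3 (0.80) or EcRS replicate 1 (0.94).

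The other riser, SI65_03567, is annotated as a monooxygenase of iron response as well as of ergosterol synthesis and went from 6.11 to 8.49 FPKM in EcCK to 35.1 to 48.5 FPKM in EcRS. An oxysterol-binding protein (SI65_05429), a carrier of sterols between membranes, fell from 87.7 to 96.2 FPKM to 25.3 to 36.1 FPKM, a change of -1.59 that was not called with TMM (-0.76). An acetyl-CoA acetyltransferase gene (SI65_05550) fell from 6.19 to 13.2 FPKM to 0.725 to 0.872 FPKM. The fall of the siderophore gene SI65_01685 (-1.01) was lost without any single library but EcCK replicate 3 (-0.82 to -1.04), with TMM (-0.26) and with the libraries paired by number (-0.95, adjusted p = 0.0565). The gene annotated to SREBP signalling (SI65_07280), the sterol sensing pathway, had 19.1, 22.2 and 26.6 FPKM in EcCK, 25.7, 29.4 and 33.9 FPKM in EcRS and 31.5, 49.5 and 64.6 FPKM in EcSQ and was not called.

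To see the same genes on the roots of the related plant, EcSQ was compared with EcCK, which shares its control libraries with the comparison above. Of the 66 pathway genes tested 5 were up-regulated and 1 was down-regulated, beside 1.72% up and 1.87% down over 9160 genes. The 5 were HMG-CoA synthase, diphosphomevalonate decarboxylase, the EBP-type gene SI65_10136, ERG4 and SI65_08677, and the gene that fell was SI65_07443 of the ERG6 KO. The median log2 fold change was 0.21 over the pathway genes and -0.01 over all genes. None of the 27 genes of the reverse transcriptase-like set tested was called with edgeR, 0 had an unadjusted p under 0.05, and DESeq2 and limma called 0.

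In EcSQ the HMG-CoA synthase gene rose 5.14-fold (log2 fold change 2.36 ± 0.53 (SE), adjusted p = 0.0467) and the decarboxylase 5.93-fold (log2 fold change 2.57 ± 0.52 (SE), adjusted p = 0.0353). The EBP-type gene SI65_10136 rose 15.2-fold (log2 fold change 3.93 ± 0.85 (SE), adjusted p = 0.0429), ERG4 4.93-fold (log2 fold change 2.30 ± 0.49 (SE), adjusted p = 0.0405) and SI65_08677 8.62-fold (log2 fold change 3.11 ± 0.56 (SE), adjusted p = 0.0266). SI65_07443 fell 5.51-fold (log2 fold change -2.46 ± 0.54 (SE), adjusted p = 0.0456). All EcSQ libraries lay beyond all EcCK libraries in these 6 genes. The calls are thin, since each of the 6 was lost without any one of the EcCK libraries or without EcSQ replicate 2, with adjusted p-values of 0.057 to 0.222, while the log2 fold changes kept their sign. Over all genes tested, 0 were called without EcCK replicate 1 and 0 without EcSQ replicate 2. Without EcCK replicate 2, 1 was called up and 3 down, and without EcCK replicate 3, 41 and 111. The loss was thus not particular to these 6 genes. Without EcSQ replicate 1 the calls of diphosphomevalonate decarboxylase (adjusted p = 0.0522), ERG4 (adjusted p = 0.0525) and SI65_07443 (adjusted p = 0.0798) were lost as well. In 19 pathway genes all EcSQ libraries lay above all EcCK libraries and in 14 below, beside 14.3% and 17.7% of all genes tested.

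Without EcSQ replicate 3, the library that stood apart, 15 pathway genes were called up and 5 down, beside 9.88% and 6.69% over 9178 genes. Their median was 0.51. The genes added on the rising side were both copies of mevalonate kinase, both HMG-CoA reductase genes, squalene epoxidase, ERG24, ERG6, ERG2, SI65_09595 of the EBP KO and the ERG4 neighbour SI65_01247. HMG-CoA reductase (SI65_05438), whose values in both root groups are given above, came to 1.74 (adjusted p = 0.0239), and the EcSQ libraries lay above all EcCK and EcRS libraries. The falls added were those of the sterol O-acyltransferase (-2.56, adjusted p = 0.0128), both TGL4-type genes (-1.38 and -1.73) and dehydrodolichyl diphosphate synthase SI65_00558 (-2.35, adjusted p = 0.00954).

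EcSQ replicate 3 differed from its group at several steps of the route, in both directions. Isopentenyl diphosphate isomerase had 2401 and 1880.1 FPKM in the first EcSQ libraries and 75.1 FPKM in the third, and phosphomevalonate kinase 259 and 235 FPKM against 20.6 FPKM. The lanosterol synthase gene SI65_04915 had 63.4 and 42.9 FPKM against 1.86 FPKM, and its neighbour SI65_04914 had 26.2 and 19.5 FPKM against 1.43 FPKM. ERG27 had 27.1 and 17.0 FPKM against 0.724 FPKM, and ERG26 89.2 and 61.6 FPKM against 3.33 FPKM. ERG5 and ERG3 went the other way, with 78.2 and 151 FPKM against 449.6 FPKM and with 87.8 and 95.8 FPKM against 299 FPKM. For HMG-CoA synthase (2468 FPKM) and ERG4 (70.2 FPKM) the third library was not below both others.

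The summed level of each role shows the same groups by library. The 8 mevalonate genes summed to 815 to 1837 FPKM in EcCK, 1583 to 1976 FPKM in EcRS and 3173 to 5715 FPKM in EcSQ, so that EcSQ lay above both other groups. HMG-CoA synthase took up to 77.8% of this sum in a library and the isomerase up to 55.8%. The genes from lanosterol to ergosterol summed to 1030 to 1146 FPKM in EcCK, 1175 to 1465 FPKM in EcRS and 1467 to 2182 FPKM in EcSQ. The sterol ester genes summed to 265 to 439 FPKM in EcCK, 110.2 to 147 FPKM in EcRS and 81.9 to 114 FPKM in EcSQ, with no overlap between EcCK and either root group. For single genes, all EcRS libraries lay below all EcCK libraries in 52.0% of those listed. All EcSQ libraries did so in 17.7% of those tested. The prenyl chain genes summed to 268 to 969 FPKM in EcSQ. These sums include both copies of each pair and carry no test.

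**Figure D4:**
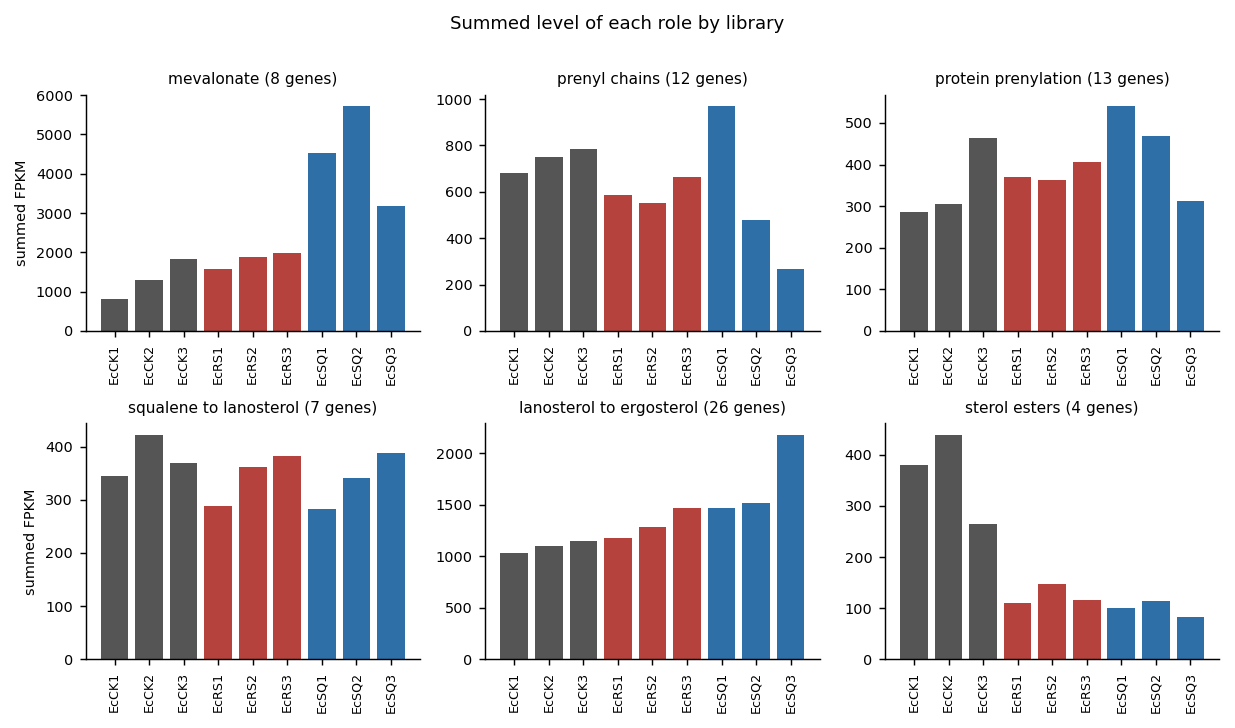
Summed FPKM of the pathway genes of each role in each library (vertical axes start at 0 and differ between panels). The mevalonate genes are highest in the EcSQ libraries (3173 to 5715 FPKM) and the sterol ester genes are lower in all EcRS and EcSQ libraries than in all EcCK libraries. Among single listed genes, 52.0% had all EcRS libraries below all EcCK libraries.

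Finally the root groups were compared directly, EcRS against EcSQ. None of the 64 pathway genes tested was called, and over the whole set 0 of 82 genes were called with edgeR, where 22 had an unadjusted p under 0.05. DESeq2 called 5 up and 12 down in the set, beside 5.21% and 12.1% over all genes, and limma 0. Over all 8784 genes 0.0342% were called up and 0.0% down. Without EcSQ replicate 3, 3 pathway genes were higher in EcRS and 25 lower (4.69% and 39.1%), beside 4.23% and 49.8% over 8842 genes. The median log2 fold change was -0.63 over the pathway genes and -1.08 over all genes. A further 14 falls were in the reverse transcriptase-like set, where 30 of 38 genes averaged under 1 FPKM in EcRS. Such genes passed the filter through their EcSQ level, which favours a fall, so this count is a description only. HMG-CoA synthase (-1.15, close to the median of all genes), HMG-CoA reductase (-1.86) and the isomerase (-2.70) were among the lower pathway genes. The higher ones were SI65_00558 (1.26), SI65_01817 (1.30) and SI65_07443 (1.51). TMM was not combined with leaving out a library. ERG2 (SI65_01557), ERG4 (SI65_01246), ERG5 (SI65_01506) and ERG6 (SI65_04720) were not called in this comparison with or without that library.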

How the data were processed

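The authors deposited 1 table with estimated counts and FPKM of 10227 genes for all 9 *A. cristatus* libraries. Of the submitters' processing notes, HISAT2 (2.0), StringTie (1.3.0) and Bowtie (0.12.2) are known by name, and their roles and the use of strand in counting are not given in the sources used here. The deposited FPKM divide the estimated counts by coding length and by a total that includes signal outside listed genes. The counts derive from coverage, so no counting interval is given. Coordinates are those of the table.

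For the tests, counts were rounded and compared by edgeR quasi-likelihood (edgeR 4.0.16 under R 4.3.3), taking as library size the total that the FPKM imply, for genes averaging at least 1 FPKM in the libraries of the comparison. A call required a Benjamini-Hochberg adjusted p of at most 0.05 across all genes tested and a 2-fold change. The code was tested on simulated data. Deviations from the group mean were weakly correlated between EcRS and EcCK replicates with equal numbers (0.12, 0.20 and 0.29). Replicates with unequal numbers gave correlations from -0.28 to 0.20, so a pairing is uncertain. Equal numbers were taken as pairs only in an alternative fit with the replicate as a block. Other alternatives were TMM, totals of the listed genes, DESeq2 1.42.0, limma 3.58.1 on log2(FPKM + 1) and other pseudocounts, other filters, 1 fit of all libraries, no fold limit, and leaving out each library.

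The members and lists were chosen with earlier results of these data known. All genes at the steps of the route are named, with the largest changes among other members, but only examples of the reverse transcriptase-like set. Divisions by GO term and by copies were added after the data were seen. No sequences are printed, since no reference was used here.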

Additional observations from a re-analysis of the deposited data

How the results depend on the processing

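Counts over the whole set of 108 genes moved with the scaling, the tool, the filter and the library left out. In EcRS against EcCK, 12 genes rose and 34 fell, with a median log2 fold change of -0.69. TMM gave 27 rises and a median of 0.20, DESeq2 28 rises, 22 falls and 0.23, and limma on log2(FPKM + 5) 14 falls and -0.25. Over all 8925 genes tested, 1145 rose and 4251 fell, and with TMM 2352 and 2798. DESeq2 gave 2424 and 2814 over all genes, and limma on log2(FPKM + 5) 916 and 2754. The median of the set was -0.47 with totals of the listed genes, -0.44 with limma on log2(FPKM + 1) and -0.20 without the reverse transcriptase-like set. A minimum mean of 5 FPKM left 18 falls and a median of -0.056, beside 3109 falls over all 6965 genes tested. Leaving out 1 library gave 9 to 14 rises, 27 to 38 falls and a median of -0.79 to -0.18, the last without EcCK replicate 3. Over all genes it gave 971 to 1492 rises and 3871 to 4433 falls, with the filter applied anew to the libraries kept.

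In EcSQ against EcCK, 5 genes rose and 1 fell. DESeq2 gave 16 and 8, limma on log2(FPKM + 5) 8 and 4, and all 9 libraries in 1 fit 12 and 7. Over all 9160 genes tested, 158 rose and 171 fell. DESeq2 gave 1274 and 1036 there, limma on log2(FPKM + 5) 297 and 384, and all 9 libraries in 1 fit 705 and 592. Falls in the set numbered 4 with TMM, 3 with limma on log2(FPKM + 1) and 2 on log2(FPKM + 0.1), beside 449, 339 and 220 over all genes. Leaving out 1 library gave 0 to 15 rises and 0 to 5 falls in the set, beside 0 to 907 and 0 to 614 over all genes. In EcRS against EcSQ, where edgeR called 0 either way, DESeq2 gave 5 rises and 12 falls and all 9 libraries in 1 fit 12 falls. Over all 8784 genes, DESeq2 gave 458 rises and 1067 falls and all 9 libraries in 1 fit 1105 falls. The median of the set in this comparison, -0.71, was -0.066 with TMM and -0.078 with DESeq2. Leaving out 1 library gave 0 to 3 rises and 0 to 39 falls in the set, beside 0 to 374 and 0 to 4406 over all genes. The cause of these differences was not tested beyond the settings themselves.

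With the replicate block EcRS against EcCK gave 13 rises and 34 falls, beside 1221 and 4142 over all 8925 genes. The calls of SI65_09721, among the members, and SI65_01685, outside the set, changed. In EcSQ against EcCK libraries of equal number were not correlated (-0.05, -0.04 and -0.11), and the block gave 0 rises and 0 falls, beside 9 and 25 over all 9160 genes. The median in EcRS against EcCK changed sign with TMM and DESeq2, while no named gene that was called reversed direction. Of the 35 named genes called in EcRS against EcCK, 19 were called under every alternative run, and 0 of 6 in EcSQ against EcCK. In the latter, leaving out EcCK replicate 1 or EcSQ replicate 2 called 0 of all genes tested, so that no gene could keep a call. With 3 libraries a group, the spread within EcSQ limits what its comparisons can call.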
